A study of Homo sapiens with 4 samples.

Results

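Eph receptors and ephrins, the receptor kinases and membrane-bound ligands of a cell contact signalling system, were examined in RNA-seq of HaCaT cells after ALKBH5 knockdown. The 10 members are the genes EPHA1, EPHA2, EPHA4, EPHB2, EPHB3, EPHB4, EFNA1, EFNA5, EFNB1 and EFNB2, chosen by name among the 58735 genes that each of the 2 deposited tables lists, and each symbol matched 1 gene. HaCaT is an established, spontaneously immortalised line of human keratinocytes, labelled as wild type. Cells in six-well plates received 200 pmol of siRNA by lipid-based transfection, either ALKBH5 siRNA (siALKBH5, 2 libraries) or a negative control siRNA (siControl, 2 libraries), so all cells of both groups had been transfected. ALKBH5 removes the methyl group from N6-methyladenosine (m6A) in RNA, and the comparison asks which transcripts differ when it is depleted. The labels do not say which ALKBH5 siRNA was used. They also do not say whether both libraries of a group came from separate cultures, so the p-values measure the spread between these libraries, which may be technical.

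Eph receptors are receptor tyrosine kinases that bind ephrins on a neighbouring cell, which makes their signalling depend on cell contact. A-class ephrins are held in the membrane by a lipid anchor and B-class ephrins by a transmembrane segment, and each class binds mainly the receptors of its own class. The receptor sends a forward signal into its cell, largely acting on the actin cytoskeleton, and the ephrin can send a reverse signal into the cell that carries it. In epithelia the system is known for cell sorting, boundary formation, migration and, in the epidermis, keratinocyte differentiation.

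Library totals lay between 16017502 and 18837807 counts, and mitochondrial genes took 10.2% of either siControl library against 9.63% and 9.64% in the siALKBH5 libraries. ALKBH5 itself had 1512 and 1576 siControl counts against 956 and 816 siALKBH5 counts, and it fell by 0.85 ± 0.05 on the log2 scale (SE, adjusted p = 6.4e-15), so the knockdown was partial. All 9 keratinocyte markers were tested, 5 of them rose and 3 fell, and their summed level was 14741 to 15063 TPM (counts per base of the listed gene length, scaled to a fixed sum in each library) in siControl and 19298 to 19347 TPM in siALKBH5. That sum is led by KRT5, with a mean of 4730 TPM in siControl and 7509 in siALKBH5, and KRT14, at 7113 and 8233 TPM. The 3 that fell were TP63, KRT17 and ITGA6. The fibroblast markers summed to 7.57 to 7.60 TPM in siControl and 5.90 to 6.12 TPM in siALKBH5, with 3 of 6 tested, 2 of these lower, and COL1A2 and PDGFRA at 0 in every library. The endothelial markers summed to 11.6 to 11.8 against 11.2 to 11.5 TPM with KDR at 0 and 2 of 4 tested, of which CDH5 fell (-0.69, adjusted p = 5.0e-05) and VWF rose (0.51, adjusted p = 2.1e-05). The melanocyte markers summed to 2.08 to 2.47 against 2.44 to 2.89 TPM with TYR at 0, and the 1 of 4 tested was not called. The part of these differences in the results for the members was not tested. In bulk RNA, fewer cells of a kind and less RNA per cell cannot be told apart.

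The members differed widely in level in the siControl cells. On the TPM scale the siControl order ran from EFNA1 at 178.7 ± 4.68 (SD, n = 2) and EFNB1 at 147.1 ± 3.05 through EPHB3 at 67.4 ± 0.529, EPHA1 at 48.4 ± 0.538, EPHA2 at 45.5 ± 3.37, EPHB4 at 35.4 ± 1.72 and EPHB2 at 30.1 ± 0.29 to EFNB2 at 14.96 ± 0.287, EPHA4 at 7.88 ± 0.349 and EFNA5 at 6.75 ± 0.621. In that group no member's libraries overlapped those of the next in the order. Each ephrin class thus had 1 abundant and 1 scarce gene among the members. EPHB3 was the receptor with the highest level, at 29.2% and 28.2% of the TPM summed over the member receptors in the siControl libraries. In siALKBH5, 3 neighbouring pairs could not be told apart because their libraries overlapped, namely EFNB1 (165.4 ± 6.48 TPM) with EFNA1 (160.7 ± 0.767 TPM), EPHA2 (49.7 ± 2.72 TPM) with EPHA1 (49.2 ± 1.61 TPM), and EPHB2 (39.5 ± 0.684 TPM) with EPHB4 (37.9 ± 2.37 TPM). At the low end EFNA5, at 6.41 ± 0.0452 TPM, then stood above EPHA4, at 4.75 ± 0.0196 TPM. The order depends on the length used. An alternative length, chosen after the data were seen, was that of the annotated transcript with the longest coding sequence. Per base of that transcript EPHB4 (34.1 TPM) stood above EPHA2 (30.9 TPM) in siControl. In siALKBH5 EFNA1 (137.1 TPM) stayed above EFNB1 (107.0 TPM) and EPHB4 (36.5 TPM) above EPHB2 (29.6 TPM). EPHA1 (44.8 TPM) stood above EPHA2 (33.7 TPM) in siALKBH5 by that length, while EPHA4 (3.66 TPM) remained below EFNA5 (4.43 TPM) there.

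**Figure D1:**
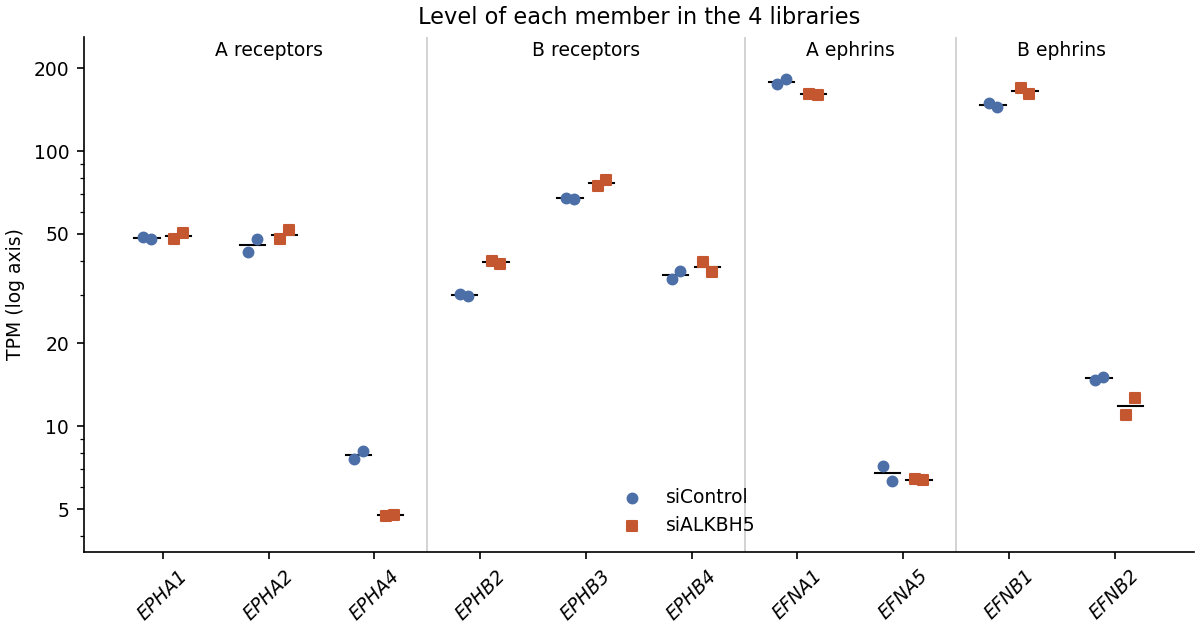
Level of each member in TPM on a log axis, with circles for the 2 siControl libraries, squares for the 2 siALKBH5 libraries and a short black line for each group's mean. EFNA1 and EFNB1 are the highest members in both groups, and EPHA4 falls from 7.88 to 4.75 TPM.

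Since the depleted enzyme acts on m6A, the member transcripts were searched for GGACT, the most used core of the m6A consensus. The search used the transcript strand of the annotated transcript with the longest coding sequence in GENCODE 29. The 3′UTR held at least 1 GGACT in 8 of the 10 members, against 56.9% of 12323 measured coding genes, whose 3′UTRs had a median length of 992 bases. EPHB2, with a 3′UTR of 7630 bases, held 11 copies there, EPHA4 held 5 in 3343 bases, EPHB3 5 in 787 bases, EFNB2 3 in 3295 bases and EFNB1 1 in 1493 bases. EPHA1 and EFNA1 held 0 in 3′UTRs of 345 and 790 bases, and 7 and 2 in their coding sequences. For the members that changed, the first copy after the stop codon is shown with 10 bases on either side. It runs 5′ to 3′ on the transcript strand with every GGACT in capitals. EFNA1 has none to show. The EPHA4 window lies at chr2:221425562-221425586 on the minus strand, that of EPHB2 at chr1:22914379-22914403 on the plus strand, that of EPHB3 at chr3:184581667-184581691 on the plus strand, that of EFNB1 at chrX:68840984-68841008 on the plus strand and that of EFNB2 at chr13:106492787-106492811 on the minus strand, all in GRCh38 and all in the 3′UTR.
EPHA4: cattttttaaGGACTcagctgtggc
EPHB2: cctgcctcgaGGACTgatactgcag
EPHB3: gcagccggctGGACTttcGGACTct
EFNB1: caccttcccaGGACTgcttgtccgc
EFNB2: acgcccattcGGACTgctgtgccgc
The motif occurred in the 3′UTR of members that rose, of members that fell and of members not called, with 2 copies in EPHA2, 2 in EPHB4 and 5 in EFNA5. Methylation was not measured in these libraries, and a match shows only that the letters are present in the annotated transcript. Only the transcript with the longest coding sequence was searched, while EPHA4 has 14 annotated transcripts and EPHB2 has 7. The counts are per gene, and which transcripts the cells expressed was not tested.

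After ALKBH5 knockdown 3 members rose (EPHB2, EPHB3 and EFNB1), 3 fell (EPHA4, EFNA1 and EFNB2) and 4 were not called (EPHA1, EPHA2, EPHB4 and EFNA5), at an adjusted p under 0.05 in edgeR's quasi-likelihood test. All 10 passed the filter on low counts. Among the 15075 genes tested, 19.3% rose and 17.3% fell, and the 3 higher and 3 lower of 10 members are to be read against these shares. The groups did not overlap for 7 of the 10 members, against 66.3% of all genes. With a log2 fold change of at least 1 required as well, edgeR called 0 members, against 2.92% of all genes, DESeq2 also called 0, and 0 members reached that size at an unadjusted p under 0.05. The median log2 fold change was 0.07 over the members and -0.0081 over all genes. The changes ran in both directions within the receptors and within the ephrins.

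**Figure D2:**
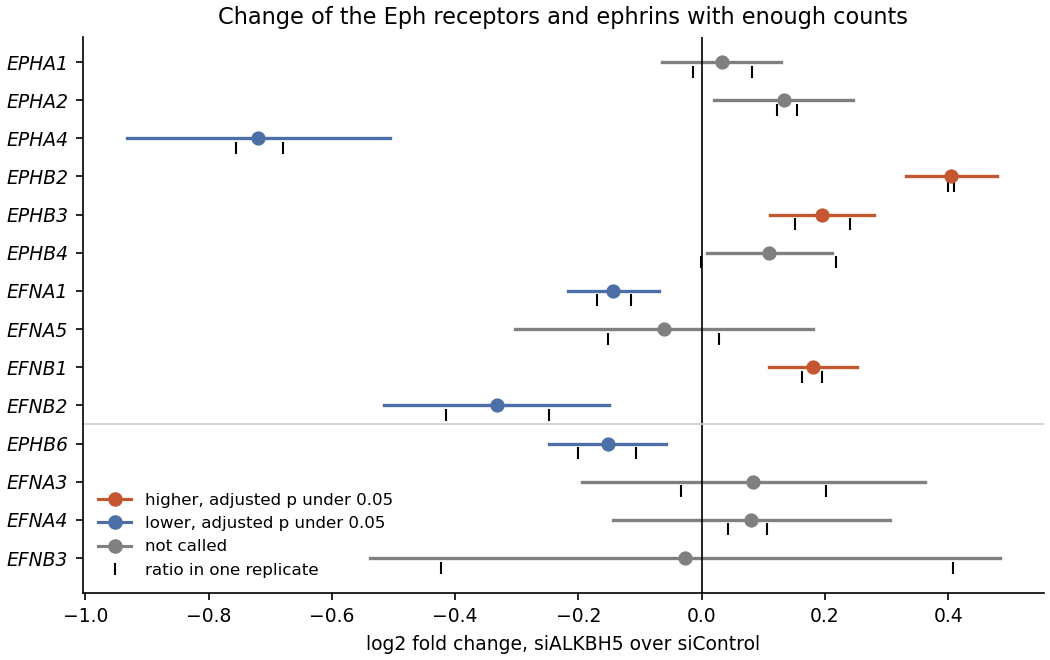
Log2 fold change of siALKBH5 over siControl for the members and, below the grey line, the 4 other family genes with enough counts for the test, with points for the fit, lines for its 95% interval and black ticks for the ratio in each replicate. EPHA4 is farthest to the left at -0.72 and EPHB2 farthest to the right at 0.41.

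Among the A-class receptors EPHA4 fell, and EPHA1 and EPHA2 did not pass the test. EPHA4, which unlike most Eph receptors binds ephrins of both classes, lies on chromosome 2 from 221418027 to 221574202. It had 322 and 382 siControl counts against 233 and 207 siALKBH5 counts, or 19.95 and 21.20 against 12.5 and 12.6 CPM (counts scaled by TMM to a common library size). The 2 siALKBH5 values lay below the 2 siControl values, with a gap that exceeded the difference between libraries of one group. The fall was 39.2% in mean CPM and 0.72 ± 0.10 on the log2 scale (SE, 95% interval -0.93 to -0.51, adjusted p = 1.3e-06), the largest among the members in either direction. The replicates taken alone gave log2 ratios of -0.68 and -0.76. A gene called AC079834.2 shares 353 exon bases with EPHA4, or 4.67%, and had 9 and 11 siControl counts against 6 and 3 siALKBH5 counts.

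EPHA2, the receptor for EFNA1 that is abundant in keratinocytes, lies on chromosome 1 from 16124337 to 16156087 and had 1002 and 1240 siControl counts against 1293 and 1234 siALKBH5 counts. In CPM these were 62.1 and 68.8 against 69.1 and 74.9, so the groups did not overlap but their nearest libraries almost met. The log2 fold change was 0.13 ± 0.06 (SE, 95% interval 0.020 to 0.25, adjusted p = 0.059). It missed the threshold here and passed it without siControl replicate 2 (0.21, adjusted p = 0.0104) and without siALKBH5 replicate 1 (0.19, adjusted p = 0.0141). It shrank to 0.07 without siControl replicate 1 (adjusted p = 0.493) and to 0.08 without siALKBH5 replicate 2 (adjusted p = 0.406). EPHA1, an epithelial receptor on chromosome 7 from 143390289 to 143408892, had 1290 and 1415 siControl counts against 1480 and 1369 siALKBH5 counts. Its CPM of 79.9 and 78.5 against 79.1 and 83.1 overlapped, with a log2 fold change of 0.03 ± 0.05 (SE, 95% interval -0.064 to 0.13, adjusted p = 0.64). That interval allows a small change of EPHA1 in either direction. The gene ZYX on the opposite strand shares 82 exon bases with EPHA1, or 1.73%, and had 2259 and 2413 siControl counts against 2289 and 2100 siALKBH5 counts.

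Of the B-class receptors, EPHB2 and EPHB3 rose and EPHB4 was not called. EPHB2, a receptor for B-class ephrins known for sorting epithelial cells, lies on chromosome 1 from 22710839 to 22921500. It had 2117 and 2327 siControl counts against 3258 and 2808 siALKBH5 counts, or 131 and 129 against 174 and 170 CPM. The groups stood far apart and each was tight. Its mean CPM was 32.4% higher after knockdown, with a log2 fold change of 0.41 ± 0.04 (SE, 95% interval 0.33 to 0.48, adjusted p = 4.9e-11), and the replicates alone gave log2 ratios of 0.41 and 0.40. EPHB3, which acts beside EPHB2 in epithelial sorting and lies on chromosome 3 from 184561784 to 184582409, had 1716 and 1891 siControl counts against 2208 and 2043 siALKBH5 counts. Its CPM of 106 and 105 against 118 and 124 did not overlap, and the rise was smaller, at 0.19 ± 0.04 on the log2 scale (SE, 95% interval 0.11 to 0.28, adjusted p = 3.0e-04).

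EPHB4, the receptor that pairs with EFNB2 in vessel formation, lies on chromosome 7 from 100802565 to 100827521 and had 1231 and 1469 siControl counts against 1660 and 1342 siALKBH5 counts. In CPM its siALKBH5 libraries were at 88.7 and 81.4 and its siControl libraries at 76.3 and 81.5, so the groups overlapped. The log2 fold change was 0.11 ± 0.05 (SE, 95% interval 0.0079 to 0.21, adjusted p = 0.086). EPHB4 passed the threshold without siControl replicate 2 (0.16, adjusted p = 0.0411) and without siALKBH5 replicate 2 (0.17, adjusted p = 0.017). The value shrank to 0.07 without siControl replicate 1 (adjusted p = 0.445) and to 0.05 without siALKBH5 replicate 1 (adjusted p = 0.635). The gene SLC12A9 shares 69 exon bases with EPHB4, or 1.07%, and had 564 and 680 siControl counts against 610 and 520 siALKBH5 counts.

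Of the A-class ephrins, EFNA1 fell slightly and EFNA5 was not called. EFNA1, the main A-class ligand of epithelia, lies on chromosome 1 from 155127460 to 155134857 and had 2488 and 2877 siControl counts against 2665 and 2338 siALKBH5 counts. Scaled to library size these were 154 and 160 against 142 and 142 CPM, with no overlap. The fall was 9.40% in mean CPM and 0.14 ± 0.04 on the log2 scale (SE, 95% interval -0.22 to -0.069, adjusted p = 0.0022). Without siControl replicate 2 it was -0.12 and no longer passed (adjusted p = 0.0532). EFNA5, an A-class ligand best known from axon guidance that also binds EPHB2, lies on chromosome 5 from 107376889 to 107670895. It had 229 and 224 siControl counts against 239 and 209 siALKBH5 counts, or 14.2 and 12.4 against 12.8 and 12.7 CPM. The siALKBH5 values lay between the siControl values, and the log2 fold change was -0.06 ± 0.12 (SE, 95% interval -0.30 to 0.18, adjusted p = 0.73).

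The B-class ephrins moved in opposite directions. EFNB1, a transmembrane ligand known for boundary formation in the skull and face, lies on chromosome X from 68828997 to 68842147 and had 2765 and 2992 siControl counts against 3668 and 3065 siALKBH5 counts. Its CPM of 171 and 166 against 196 and 186 did not overlap. The rise was 13.2% in mean CPM and 0.18 ± 0.04 on the log2 scale (SE, 95% interval 0.11 to 0.25, adjusted p = 1.0e-04). EFNB2, the ligand that marks arterial vessels and binds EPHB4, lies on chromosome 13 from 106489731 to 106535662 and had 414 and 474 siControl counts against 360 and 365 siALKBH5 counts. In CPM the siALKBH5 libraries, at 19.2 and 22.1, were below the siControl libraries, at 25.7 and 26.3. The fall was 20.3% in mean CPM and 0.33 ± 0.09 on the log2 scale (SE, 95% interval -0.51 to -0.15, adjusted p = 0.0035). It rested on siALKBH5 replicate 1, without which the value was -0.23 and no longer passed (adjusted p = 0.105). An antisense gene, AL138689.2, shares 1313 exon bases with EFNB2, or 26.2%, and had 12 and 3 siControl counts against 5 and 0 siALKBH5 counts, so reads of the pair cannot be told apart unless the counting used strand, which the sources used here do not state.

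Ratios of raw counts within a library do not depend on its scaling, and they set the members side by side. There were 6.57 and 6.09 EPHB2 counts per EPHA4 count in siControl and 14.0 and 13.6 in siALKBH5. EPHA2 counts per EPHA4 count were 3.11 and 3.25 in siControl and 5.55 and 5.96 in siALKBH5. Neither ratio overlapped between the groups, and both were higher after knockdown. EFNB1 counts per EFNB2 count were 6.68 and 6.31 in siControl and 10.19 and 8.397 in siALKBH5, and EFNB1 counts per EFNA1 count were 1.11 and 1.04 against 1.38 and 1.31. For a ligand and a receptor that bind each other, EFNA1 counts per EPHA2 count were 2.48 and 2.32 in siControl and 2.06 and 1.89 in siALKBH5, and EFNB2 counts per EPHB4 count were 0.336 and 0.323 against 0.217 and 0.272. In both of these pairs the siALKBH5 libraries held fewer ligand counts per receptor count than the siControl libraries. That does not hold for every binding pair. EPHA4, which binds both classes, changed by -0.72 on the log2 scale, against -0.14 for EFNA1 and -0.33 for EFNB2. Counts of these ligands per EPHA4 count therefore moved the other way. EPHB3 counts per EPHB4 count, at 1.39 and 1.29 in siControl and 1.33 and 1.52 in siALKBH5, overlapped between the groups. These ratios combine changes already tested gene by gene and carry no test of their own. EPHB2 and EPHA4 are the members with the largest rise and the largest fall, so their ratio was bound to differ between the groups.

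**Figure D3:**
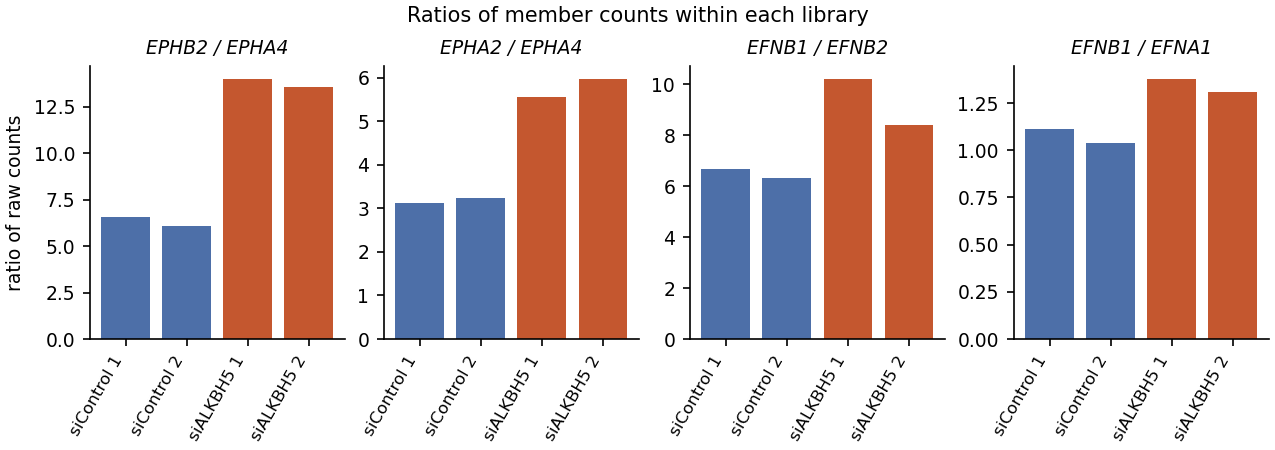
Ratios of raw member counts in each of the 4 libraries, with bars from 0 and siControl in blue and siALKBH5 in orange. The EPHB2 to EPHA4 ratio goes from 6.57 and 6.09 to 14.0 and 13.6, and in none of the 4 panels do the groups overlap. The panels are a choice from the ratios given in the text. The EPHB3 to EPHB4 ratio is not drawn, and its groups overlapped.

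Summed by class over the members only, the A-class receptors were at 99.5 and 104.0 TPM in siControl and 100.5 and 106.7 TPM in siALKBH5, which overlap. The B-class receptors were at 132.3 and 133.5 TPM against 154.4 and 153.7 TPM. EPHA4, though it fell most, made only 3.29% and 3.42% of the summed receptor TPM in siControl and 1.86% and 1.83% in siALKBH5, whereas EPHB2 went from 13.1% and 12.6% to 15.68% and 14.99%. Among the ligands, the A-class sum was 182.5 and 188.3 TPM in siControl and 167.7 and 166.5 TPM in siALKBH5, and the B-class sum was 164.1 and 160.2 against 181.0 and 173.5 TPM. EFNA1 went from 50.6% and 52.2% to 46.2% and 47.1% of the summed ephrin TPM, and EFNB1 from 43.1% and 41.6% to 48.8% and 47.3%. All 4 member ephrins together overlapped between the groups, at 346.6 and 348.4 against 348.7 and 340.0 TPM. The sum over all 6 member receptors did not, at 231.8 and 237.5 against 255.0 and 260.4 TPM. These sums are descriptions without a test, and each is led by its most abundant member. The sums and shares leave out other expressed family genes, so they are not totals of a class. In mean TPM, EPHB6 was at 47.1 in siControl and 42.0 in siALKBH5, EFNA4 at 34.3 and 35.9, and EFNA3 at 13.5 and 14.2.

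Most of the remaining family was at or near 0 in these cells. Of the 8 other Eph receptors, only EPHB6 passed the filter on low counts. EPHB6, a receptor without kinase activity, had 1388 and 1574 siControl counts against 1494 and 1253 siALKBH5 counts and fell by 0.15 ± 0.05 on the log2 scale (SE, adjusted p = 0.010), a call that was lost with DESeq2 (adjusted p = 0.0891), without siControl replicate 2 (adjusted p = 0.0715) and without siALKBH5 replicate 2 (adjusted p = 0.134). EPHB1, which did not pass it, had 0 and 0 siControl counts against 6 and 8 siALKBH5 counts. Its mean CPM was 2.29-fold higher if siControl is set to a floor of 3 counts per library. That value takes the 6 and 8 counts as exact. Counts this low differed as much within a group, since EPHA3 had 1 and 8 siControl counts. In a separate edgeR fit without the filter the adjusted p of EPHB1 was 0.0079. EPHA7 had 0 counts in every library, and EPHA3, EPHA5, EPHA6, EPHA8 and EPHA10 had between 0 and 8 counts. A change in these last 6 receptors was not detectable at this depth.

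Of the 4 other ephrins, EFNA3, EFNA4 and EFNB3 were tested and EFNA2 had 0 counts in every library. EFNA3 had 151 and 153 siControl counts against 171 and 161 siALKBH5 counts, with a log2 fold change of 0.08 ± 0.14 (SE, adjusted p = 0.68). EFNA4 had 251 and 260 against 313 and 245 counts (0.08 ± 0.11, adjusted p = 0.61), and EFNB3 had 39 and 63 against 60 and 43 counts (-0.03 ± 0.25, adjusted p = 0.95). With edgeR 0 of the 3 were called, 0 had an unadjusted p under 0.05, and DESeq2 called 0. EFNA4, EFNA3 and EFNA1 are neighbours on chromosome 1, and a gene called AL691442.1 shares 44.7% of the EFNA3 exon bases and 14.96% of those of EFNA4.

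Genes that act with the Eph receptors and ephrins were counted in 3 lists by role, whose counts stand beside the 19.3% higher and 17.3% lower of all genes. Of 14 adaptors and kinases of forward signalling tested, 3 rose, 7 fell and 4 were not called, with a median log2 fold change of -0.11 against -0.0081 over all genes. INPPL1, the SHIP2 phosphatase that binds EPHA2, had 2229 and 2510 siControl counts against 2178 and 1915 siALKBH5 counts and fell by 0.25 ± 0.04 on the log2 scale (SE, adjusted p = 2.4e-06). PIK3R1, a regulatory subunit of PI3-kinase, fell by 0.39 ± 0.08 (SE, adjusted p = 1.5e-04), with 596 and 596 against 489 and 449 counts. CRKL, an SH2 and SH3 domain adaptor, rose by 0.17 ± 0.03 (SE, adjusted p = 1.7e-04).

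Of 9 genes of ephrin reverse signalling, 2 rose, 2 fell and 5 were not called, with a median log2 fold change of 0.02. RGS3, a regulator of G protein signalling that binds B-class ephrins, had 301 and 319 siControl counts against 597 and 494 siALKBH5 counts and rose by 0.77 ± 0.09 on the log2 scale (SE, adjusted p = 7.0e-09). STAT3, a transcription factor, fell by 0.13 ± 0.03 (SE, adjusted p = 0.0011), and DVL2, a Dishevelled adaptor, rose by 0.18 ± 0.05 (SE, adjusted p = 0.0034), a call lost without siALKBH5 replicate 1 (0.11, adjusted p = 0.157). Of 11 genes of ephrin shedding, phosphatases and ubiquitin ligases, 3 rose, 1 fell and 7 were not called, with a median of 0.03. CBL, a ubiquitin ligase that acts on activated receptor kinases, rose by 0.29 ± 0.04 (SE, adjusted p = 4.0e-07), and PTPRF, a receptor phosphatase, rose by 0.16 ± 0.02 (SE, adjusted p = 6.7e-07). ADAM10, the protease that sheds ephrins, fell by 0.19 ± 0.03 (SE, adjusted p = 2.7e-05).

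**Figure D4:**
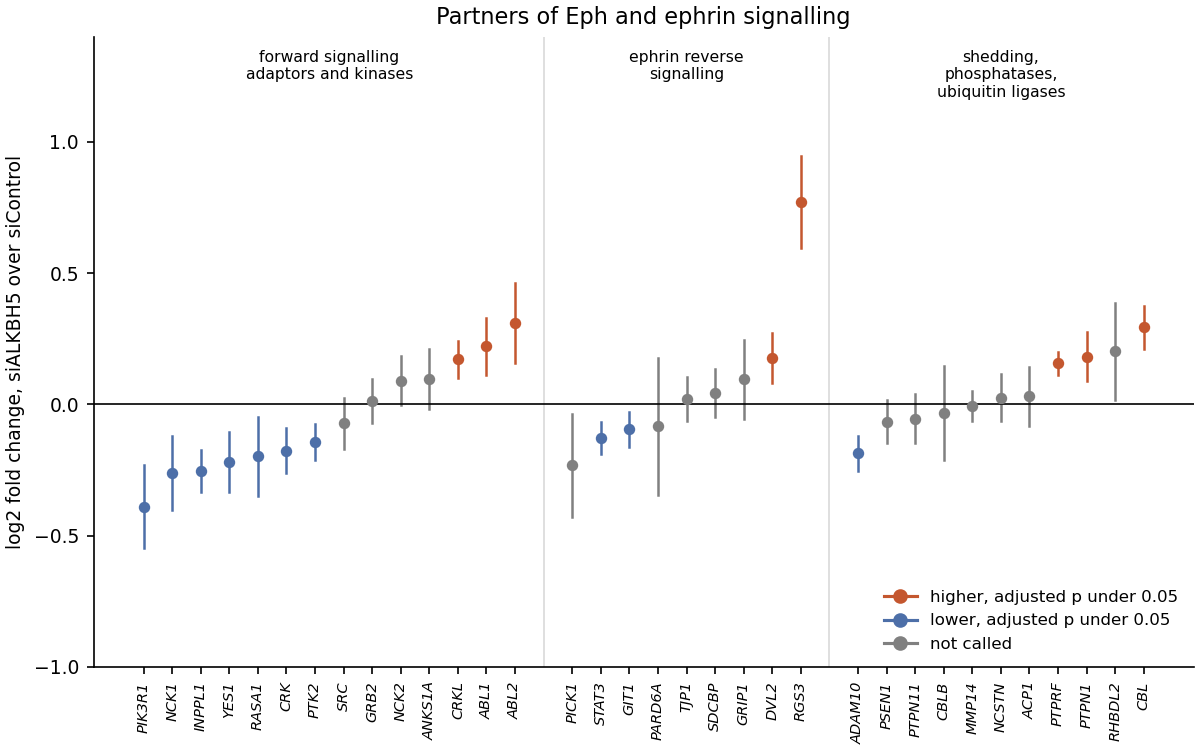
Log2 fold change of siALKBH5 over siControl for the tested genes of the 3 lists of partners, sorted within each list, with points for the fit and lines for its 95% interval. Most genes lie within 0.5 of 0, and RGS3 at 0.77 is the called gene farthest above it.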

How the data were processed

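Poly-A RNA of 4 libraries was sequenced, and the authors deposited raw counts per gene in 2 tables, each with 1 siControl and 1 siALKBH5 library. The submitters' processing notes name CASAVA, HISAT2 2.0.5, featureCounts 1.5.0-p3, DESeq2 1.20.0 and hg38. Whether counting used strand is not given in the sources used here. The tables also hold FPKM, log2 fold changes and p-values of 1 library against 1, which were not used. Every count column was matched to a sample. Counts of all genes entered the quasi-likelihood test of edgeR 4.0.16 (R 4.3.3, filterByExpr, TMM normalization, no covariates) with Benjamini-Hochberg adjustment over the 15075 genes kept. Genes were called at an adjusted p under 0.05, alone or with an absolute log2 fold change of 1 or more. The common biological coefficient of variation was 0.0253. The test shares information on spread across genes, and its total degrees of freedom were 32.43 at the median. The p-values, SE and intervals of single genes rest on that shared spread. With 2 libraries against 2 there are 3 ways to split them, so no permutation of labels can reach 0.05. Libraries of a group differed by more than sampling noise. TPM were computed from the counts and the listed gene length. Floors of 3 counts cover counting error only. Transcripts, coordinates and motifs were read from GENCODE 29 on GRCh38.

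The members and gene lists were chosen with earlier results of these data known. Named genes are the members, the other family genes, the 3 tested genes with the smallest adjusted p in each of 3 lists of partners, ALKBH5, and genes with counts that share exon bases with a named family gene. Single markers were named after their values were seen. A further list of partners and a marker list are not reported here. Alternatives were DESeq2 1.42.0, the size factors of DESeq2 in edgeR, no scaling beyond library size, all genes unfiltered, a minimum mean of 10 counts, a replicate block, and omission of single libraries. The steps were tested on simulated data.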

Additional observations from a re-analysis of the deposited data

How the results depend on the processing

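Under the 10 alternatives, 92 of the 100 fold changes of the members kept their direction and their side of the threshold, 2 lost and 5 gained a call, and EFNA5, never called, changed sign without siControl replicate 1 (0.04). Leaving out each library in turn gave between 3 and 5 members higher, the 5 being without siControl replicate 2. In these fits the group with 1 library is assumed to vary like the other. EPHA4 ranged from -0.76 to -0.67 and EPHB2 from 0.39 to 0.42 with a library left out, and both were called every time. Of all genes, edgeR called 2913 higher, 2610 lower and 440 past both limits, and DESeq2, which gave 13604 genes an adjusted p, called 2052, 1431 and 193. DESeq2 called 6 members. The replicate block, with 4 members higher and 3 lower, added EPHA2 (0.14, adjusted p = 0.0221). The labels mark 1 library of each group as a replicate, and each of the 2 deposited tables holds 1 library of each group. The labels do not tie the libraries of a table to a shared culture or day. The differences between the libraries of a group correlated at r = 0.0337 across 15075 genes, which are not independent. With 2 pairs this value cannot decide whether a culture or day was shared. Changing the scaling turned the direction of 0 members.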
